A study of Mus musculus with 104 samples.

Results

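Embryoid bodies are floating aggregates in which stem cells differentiate into derivatives of the germ layers. The libraries compared here were embryoid bodies grown from totipotent blastomere-like cells (mTBLCs) and from TC1 cells, and were chosen by their titles as those of days 10 and 12. They make up 4 of the 8 embryoid body libraries and 4 of the 104 mouse libraries of the series, with 1 library per origin and day. Days 3 and 8 were described as levels, without a test, because the mTBLC libraries of these days look out of order.

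All 8 embryoid body libraries are labelled as wild-type (WT) mESC of the TC1-GFP line grown in medium with serum, and the origin is given by the titles alone. The starting mTBLCs were the same line kept in a medium named 2MYCP (libraries of passages 6, 8, 14 and 19, n = 4), and the mPSCs were TC1-GFP cells labelled as grown in S/L medium (n = 3). Of the 3 mPSC libraries, 1 is titled as passage 0 of the mTBLC series and stands apart: its difference from the others was 122 and 239 times that of counting alone, beside 22.7 between those 2, and ribosomal protein genes took 15.2% of its counts beside 6.42% and 6.62%. Levels in mPSCs are therefore given per library. The labels give 1 line, do not say that origins or days were separate cultures, and do not name the passage from which the embryoid bodies were made. p-values therefore measure the spread between these libraries, which may be technical.

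As background, embryoid bodies form an outer layer of visceral endoderm, an epithelium that in the embryo secretes apolipoproteins, transferrin, fibrinogen and alpha-fetoprotein before the liver takes over. Inside, cells leave pluripotency through a formative and a primitive streak-like state, and mesoderm derivatives follow, among them beating heart muscle, blood vessels and primitive red blood cells. Heart muscle is recognised by its myosin light and heavy chains, troponins and cardiac actin.

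Total counts of the 8 libraries ranged from 11818933 to 17608350. Levels are given in CPM, counts scaled to the total of each library, and are compared between libraries within a gene. Differences between origins are log2 fold changes ± SE, mTBLC over TC1, from an edgeR quasi-likelihood test with day as a block, and a gene is called higher or lower where its Benjamini-Hochberg adjusted p over all genes was under 0.05. In bulk RNA, fewer cells of a type and less RNA per cell cannot be told apart.

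Over all 14531 genes tested, 711 (4.89%) were higher in mTBLC embryoid bodies and 793 (5.46%) were lower, together 10.4%, with a median log2 fold change of 0.01. These shares are the background for every list count below, and a count near them says little of its list. The calls rest on the day block: without it, 3 genes passed as higher (Cdhr2 and Slc13a4 among them) and 1 as lower (Eif2s3y), and 1621 genes had an unadjusted p under 0.05. A second description used no test and counted genes at least 2-fold apart the same way on both days, which held for 233 genes higher (1.6%) and 163 lower (1.12%), together 2.73%. The libraries of the origins did not overlap for 44.5% of genes, 23.3% with mTBLC above TC1 and 21.1% below, so a lack of overlap in a gene is common.

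Promoters of Actc1 and Myl3 are shown because they belong to the heart muscle genes, a group on which the comparison turns. They were taken from the 3 most changed called genes of that list with 1 RefSeq window and a mean of at least 5 CPM, where a motif was found. Each runs 5′ to 3′ on the gene's strand, from 250 bases before the annotated start to 50 after it, in build GRCm38.p6. Capitals mark matches on either strand to the CArG box in both, and on the gene's strand to a TATA box (TATAAA) in Actc1.
Actc1, chr2:114052826-114053125, minus strand: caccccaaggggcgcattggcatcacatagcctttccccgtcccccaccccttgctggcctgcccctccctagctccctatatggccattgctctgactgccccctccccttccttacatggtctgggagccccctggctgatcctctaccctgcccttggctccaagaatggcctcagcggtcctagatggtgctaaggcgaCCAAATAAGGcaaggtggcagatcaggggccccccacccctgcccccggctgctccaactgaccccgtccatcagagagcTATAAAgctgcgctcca
Myl3, chr9:110763428-110763727, plus strand: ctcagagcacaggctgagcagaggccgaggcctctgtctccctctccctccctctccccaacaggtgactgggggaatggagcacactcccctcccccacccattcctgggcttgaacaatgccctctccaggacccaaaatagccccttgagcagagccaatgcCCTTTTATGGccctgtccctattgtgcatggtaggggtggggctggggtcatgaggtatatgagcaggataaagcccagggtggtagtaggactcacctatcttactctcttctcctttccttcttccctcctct

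The CArG boxes, which serum response factor binds, began 47 bases before the annotated start in Actc1 and 85 before it in Myl3. The TATA match in Actc1 began 33 bases after the annotated start. A CArG box was present in 1.63% of all 32841 promoter windows, in none of the 17 windows of the called visceral endoderm genes, and in 16.7% of the 18 windows of the called heart muscle genes, those of Actc1, Myl3 and Myl7. The TATA motif was found in 8.32% of all windows, in 23.5% of the visceral endoderm windows and in 16.7% of the heart muscle windows. The GATA motif AGATAA stood in 11.2% of all windows, 11.8% of visceral endoderm windows and 16.7% of heart muscle windows, and the HNF4 motif CAAAGTCCA in 0.475% of all windows and in none of either list. No matches overlap in the printed windows, and windows of genes with several starts were all counted. Such matches describe letters in a window and say nothing of binding.

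Genes of visceral endoderm and its secreted proteins were higher in mTBLC embryoid bodies. Of 22 list genes, 20 were tested, and 16 of these were higher and 0 lower, against 4.89% of all genes tested as higher. The list median was a log2 fold change of 1.18 beside 0.01 over all genes, and 8 members were at least 2-fold higher on both days. The summed level of the list was 5318 and 5842 CPM in TC1 embryoid bodies at days 10 and 12, and 12910 and 11040 CPM in mTBLC embryoid bodies. None of the 16 passed in edgeR without the day block, where 13 had an unadjusted p under 0.05, and 13 list members passed in DESeq2.

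Trf, which encodes transferrin, the iron carrier of serum, stood at 5.68 and 21.2 CPM in TC1 embryoid bodies at days 10 and 12 and at 50.5 and 166.8 CPM in those from mTBLCs. Both mTBLC libraries were above both TC1 libraries, and the log2 fold change was 3.02 ± 0.16 (adjusted p = 1.12e-06, edgeR). Apoa1, an apolipoprotein of high-density lipoprotein, stood at 43.1 and 152 CPM against 306 and 457 CPM. The mTBLC libraries again lay above both TC1 libraries, with a log2 fold change of 2.16 ± 0.22 (adjusted p = 0.000217).

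Apob, the apolipoprotein of low-density lipoprotein, had 1687 and 1641 CPM in TC1 and 5417 and 3983 CPM in mTBLC embryoid bodies, a log2 fold change of 1.45 ± 0.15, and the origins did not overlap. Apoa2 (1.95 ± 0.20) and Apoa4 (1.77 ± 0.16), further apolipoproteins, were higher too, as was Fga, the fibrinogen alpha chain (2.34 ± 0.41), at 1.54 and 1.74 against 6.95 and 10.3 CPM.

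Afp, alpha-fetoprotein, rose with the day in both origins. It stood at 101 and 635 CPM in TC1 and at 471 and 1386 CPM in mTBLC embryoid bodies. On each day the mTBLC library was higher (log2 fold change 1.64 ± 0.21, adjusted p = 0.000698), but the groups overlapped, since day 10 from mTBLCs lay below day 12 from TC1. Ttr, transthyretin, the thyroid hormone carrier, stood at 268 and 428 against 603 and 590 CPM, a log2 fold change of 0.79 ± 0.16 (adjusted p = 0.0111), with no overlap.

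Hnf4a, a nuclear receptor known to regulate many of these genes, stood at 68.0 and 72.4 CPM in TC1 and 157 and 160 CPM in mTBLC embryoid bodies (1.15 ± 0.12). Of the endocytic receptors of this epithelium, Amn (1.22 ± 0.14), Cubn (0.59 ± 0.13) and the adaptor Dab2 (0.61 ± 0.15) were higher, while Lrp2 (0.44 ± 0.14, adjusted p = 0.0675) did not pass. Rhox5, a homeobox gene, had 0.08 ± 0.17 and did not pass either. Alb, albumin, the main serum protein of the adult liver, was at 0.08 and 4.09 CPM in TC1 and 0.32 and 6.07 CPM in mTBLC embryoid bodies and did not pass.

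**Figure D1:**
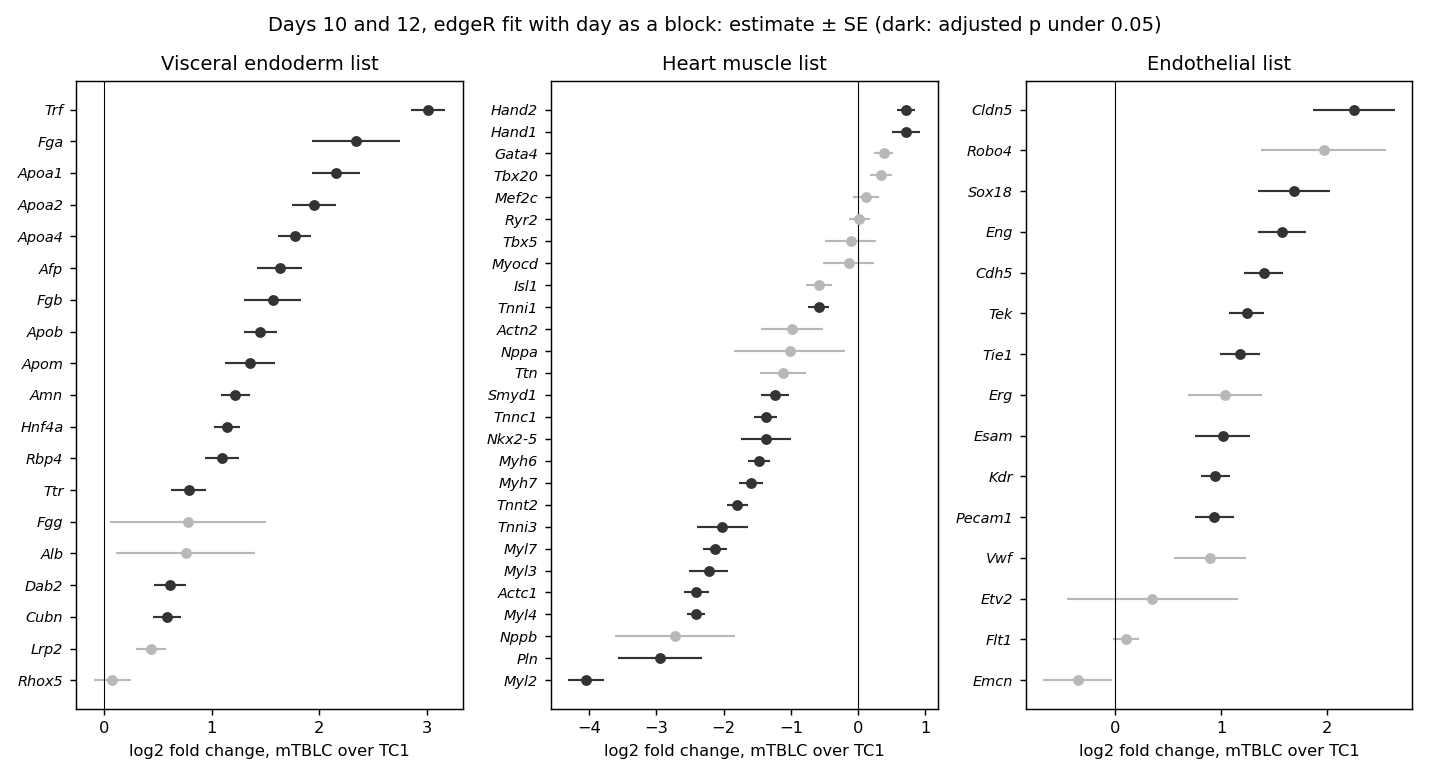
Log2 fold change (mTBLC over TC1 embryoid bodies, days 10 and 12) ± SE of 19 of the 20 tested members of the visceral endoderm list and every tested member of the heart muscle and endothelial lists, from the fit with day as a block. Dark points have an adjusted p under 0.05 (15 higher of the 19 visceral endoderm genes drawn, 14 lower and 2 higher of 27 heart muscle genes, 9 higher of 15 endothelial genes), and gray points do not.

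Among genes outside the lists, those with the largest called differences included Cdhr2, a cadherin of the brush border, at 5.84 and 6.70 CPM in TC1 and 35.1 and 42.1 CPM in mTBLC embryoid bodies (2.59 ± 0.20). It passed also without the day block. Oit3 (2.57 ± 0.38) and Pgm5 (2.52 ± 0.32) were higher as well.

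Of 14 tested gut endoderm genes, with a median of 0.43, 2 were higher, Vil1 (villin, 0.86 ± 0.14) and Spink1 (a trypsin inhibitor, 0.70 ± 0.17), and 1 was lower, the ligand Shh (-1.71 ± 0.33). Sox17, a definitive and primitive endoderm factor, stood at 72.9 and 117 CPM against 125 and 121 CPM and did not pass (0.38 ± 0.16, adjusted p = 0.161). Gata6, an endoderm factor, was higher, at 60.5 and 84.0 against 101 and 120 CPM (0.60 ± 0.13, adjusted p = 0.0133). Of 15 basement membrane genes, many of them made by parietal endoderm, 2 were higher and 0 lower, with a median of 0.13.

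Most contractile genes of the heart muscle list were lower in mTBLC embryoid bodies. Of the 27 list genes, all tested, 14 were lower, against 5.46% of all genes, and 2 were higher. The other 11 did not pass, among them Actn2 (-0.99 ± 0.47, adjusted p = 0.202), Nppa, Nppb, Ryr2 and Ttn. Log2 fold changes were negative for 21 list genes and positive for 6. At least 2-fold lower on both days were 14 members, called or not, against 1.12% of all genes. The list median was -1.23. None of the 16 called passed in edgeR without the day block, where 14 had an unadjusted p under 0.05, and 13 list members passed in DESeq2.

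Myl2, the ventricular regulatory myosin light chain, had the largest difference among genes of at least 5 CPM in either list. It stood at 19.3 and 45.5 CPM in TC1 and at 0.885 and 3.32 CPM in mTBLC embryoid bodies (log2 fold change -4.05 ± 0.26, adjusted p = 3.55e-06). Both TC1 libraries lay above both mTBLC libraries. Myl4, the atrial and embryonic light chain, stood at 105 and 145 CPM against 19.2 and 29.1 CPM (-2.41 ± 0.14, adjusted p = 1.51e-06), again without overlap.

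Actc1, cardiac actin, whose promoter is printed above, stood at 122.5 and 220.0 CPM in TC1 and at 16.4 and 57.9 CPM in mTBLC embryoid bodies (-2.41 ± 0.19, adjusted p = 2.09e-05). Myl3, the ventricular essential light chain, stood at 22.2 and 38.1 against 2.65 and 12.9 CPM (-2.23 ± 0.29). Tnnt2, cardiac troponin T, had 67.1 and 100 CPM against 16.4 and 34.6 CPM (-1.80 ± 0.16, adjusted p = 5.98e-05). In all of these the TC1 libraries were the higher ones on both days and the origins did not overlap.

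Myh6, the alpha myosin heavy chain, rose with the day in both origins, from 50.3 to 134 CPM in TC1 and from 14.4 to 61.0 CPM in mTBLC embryoid bodies. It was lower on each day from mTBLCs (-1.48 ± 0.16, adjusted p = 0.000269), and the groups overlapped. Of the 14 lower genes, 12 had a higher level at day 12 than at day 10 in TC1 and 13 in mTBLC embryoid bodies. The same held for 8088 and 8535 of all 14531 genes. Among all 793 genes called lower it held for 123 in TC1 and 149 in mTBLC embryoid bodies, and among the 711 called higher for 571 and 496. Most calls thus ran the way TC1 moved between these days, and the heart muscle genes did not. What part a difference in stage has was not tested. Csrp3, a muscle LIM protein outside the list, was lower as well (-2.84 ± 0.34).

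The 9 transcription factors of the heart field in the list were 1 lower, 2 higher and 6 not past the test. Nkx2-5 was lower, at 6.16 and 9.74 against 2.02 and 4.47 CPM (-1.38 ± 0.38, adjusted p = 0.036). Hand1 stood at 110 and 176 CPM in TC1 and 276 and 196 CPM in mTBLC embryoid bodies (0.71 ± 0.21, adjusted p = 0.0488), and Hand2 at 45.5 and 73.7 against 86.5 and 109 CPM (0.71 ± 0.14, adjusted p = 0.00856), both higher. Gata4 (0.38 ± 0.14), Tbx20 (0.35 ± 0.16), Mef2c (0.12 ± 0.19), Tbx5 (-0.11 ± 0.38), Myocd (-0.14 ± 0.38) and Isl1 (-0.59 ± 0.19) did not pass. Hand1 and Gata4 are also expressed in extra-embryonic tissue. The summed level of the list, these factors included, was 1313 and 2024 CPM in TC1 against 1184 and 1419 CPM.

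**Figure D2:**
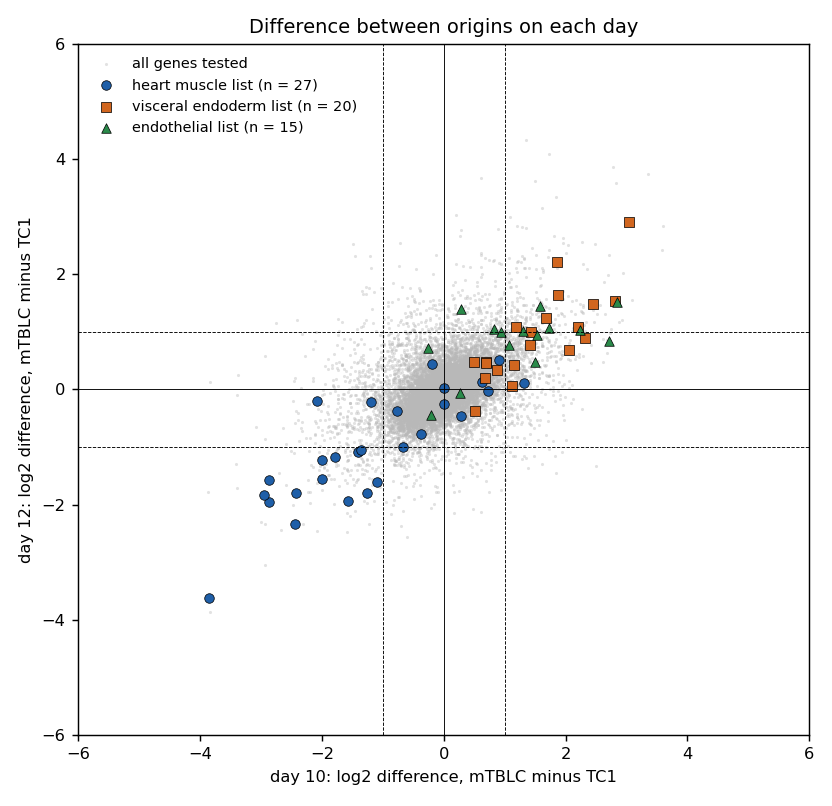
Log2 difference between the mTBLC and the TC1 library at day 10 (x axis) and at day 12 (y axis), with 1 library per origin and day, for all 14531 genes tested (gray) and for the heart muscle, visceral endoderm and endothelial lists. Dashed lines mark 2-fold, and 14 heart muscle genes lie beyond it in the lower left and 8 visceral endoderm genes in the upper right.

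Other muscle genes gave no common direction. Of 6 tested smooth and skeletal muscle genes, Tagln, an actin-binding protein of smooth muscle, was lower (-1.10 ± 0.19) and Des, desmin, higher (0.71 ± 0.21). Endothelial genes were mostly higher. Of 15 genes tested, 9 were higher, against 4.89% of all genes, and 0 lower, with a median of 1.04. None of the 9 passed in edgeR without the day block, though all 9 had an unadjusted p under 0.05 there.

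Cdh5, VE-cadherin of the junctions between endothelial cells, stood at 16.1 and 27.4 CPM in TC1 and at 54.9 and 59.7 CPM in mTBLC embryoid bodies (1.40 ± 0.19, adjusted p = 0.000862). Cldn5, a tight junction protein, was at 0.973 and 5.96 against 10.1 and 18.6 CPM (2.26 ± 0.39). Both genes were above the TC1 range in both mTBLC libraries. Sox18, a vascular transcription factor (1.69 ± 0.34), Eng, a TGF-beta co-receptor (1.58 ± 0.23), and Pecam1, an adhesion molecule (0.94 ± 0.18), were higher. Flt1, a receptor of VEGF, stood at 168 and 332 against 204 and 328 CPM and did not pass (0.10 ± 0.13), and Emcn (-0.36 ± 0.33) did not either. Stab2, a scavenger receptor of sinusoidal endothelium, was higher, at 0.081 and 3.91 against 6.32 and 24.0 CPM (3.23 ± 0.48).

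Of 14 tested blood genes, 2 were higher and 0 lower, both of them globins of the primitive red cells of the yolk sac. Hba-x, the embryonic alpha-like globin, stood at 7.06 and 27.5 CPM in TC1 and at 26.8 and 76.5 CPM in mTBLC embryoid bodies (1.64 ± 0.18). Its groups overlapped slightly. Hbb-bh1 stood at 20.0 and 46.1 against 55.8 and 79.8 CPM (1.09 ± 0.18), without overlap, and Hbb-y at 2.76 and 33.3 against 5.18 and 43.1 CPM and did not pass. The adult globins Hba-a1, Hba-a2, Hbb-bs and Hbb-bt had 0 counts in all 4 libraries. Gene pairs of the globin clusters are close copies, so reads could be split between them.

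All 14 macrophage list genes, and 12 of 13 interferon response genes, were highest in 1 of the 4 libraries, mTBLC day 12. The exception, the chemokine gene Cxcl10, was highest in TC1 day 12, at 17.7 CPM beside 8.53 CPM in mTBLC day 12. The share of all genes highest in mTBLC day 12 was not counted. Over all 14531 genes tested, 8535 had a higher level at day 12 than at day 10 in mTBLC embryoid bodies. Of 8 macrophage genes tested 5 were higher, against 4.89% of all genes, with a median of 3.34. All 5 had an unadjusted p under 0.05 without the day block, and 4 list members passed in DESeq2. Adgre1, the F4/80 antigen, stood at 0.000 and 0.558 CPM in TC1 and at 0.885 and 12.9 CPM in mTBLC embryoid bodies. Acod1, an enzyme of activated macrophages, was at 0.000, 0.744, 0.758 and 25.4 CPM in the same order (5.08 ± 0.54). The summed list was 14.3 and 23.01 CPM against 24.5 and 75.9 CPM. It was higher in the starting cells, at 249 to 302 CPM in mTBLCs and 158 to 269 CPM in mPSCs, the library titled as passage 0 included. The summed level is therefore not particular to macrophages in these cells. Much of it was Laptm5, at 196 to 271 CPM in mTBLCs and 80.2 to 220 CPM in mPSCs, so the sum does not describe each member. For 2 of the 14 list genes all 4 embryoid body libraries lay below each of the 7 starting libraries. Adgre1 stood at 1.41 to 3.46 CPM in mTBLCs, below its level in mTBLC day 12. C1qb and Aif1, defining markers, were at 0 counts in 3 of the 4 libraries. The pan-leukocyte gene Ptprc stood at 2.29 CPM in mTBLC day 12 and at most 0.496 CPM in the other libraries.

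Against both TC1 libraries pooled at a floor of 3 counts, Aif1 was at least 8.83-fold and C1qb at least 6.84-fold higher, which covers counting error only. Of 11 tested interferon response genes, 5 were higher, against 4.89% of all genes, with a median of 1.0. Of these 5, none passed in edgeR without the day block and 2 had an unadjusted p under 0.05 there, and 2 list members passed in DESeq2. Ifi44 stood at 0.162 and 0.496 CPM in TC1 and at 2.65 and 5.61 CPM in mTBLC embryoid bodies. Whether macrophage-type cells were present, and what part they play in other differences, was not tested.

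Of 21 genes of the fibroblast list, all tested, 10 were higher, against 4.89% of all genes, and 0 lower, with a median of 0.58. None of the 10 passed in edgeR without the day block, where 3 had an unadjusted p under 0.05, and 7 list members passed in DESeq2. The summed list stood at 3050 and 8736 CPM in TC1 and at 6157 and 11910 CPM in mTBLC embryoid bodies. Col1a1, the type I collagen alpha-1 chain, stood at 120 and 1301 CPM in TC1 and at 773 and 2438 CPM in mTBLC embryoid bodies (1.76 ± 0.30, adjusted p = 0.00473). The groups overlapped, as they did for Col1a2 (1.69 ± 0.22). Col6a1, type VI collagen, stood at 12.9 and 34.4 against 44.3 and 95.4 CPM (1.58 ± 0.16), without overlap, while Col5a2 (0.61 ± 0.20, adjusted p = 0.0728) and Col6a3 (0.51 ± 0.23, adjusted p = 0.185) did not pass. The pericyte receptor Pdgfrb was higher (0.70 ± 0.15), while Pdgfra (0.39 ± 0.13) and the mesenchymal factors Prrx1 (-0.60 ± 0.36) and Twist1 (0.31 ± 0.20) did not pass. Starting mTBLCs held Col1a1 at 386 ± 101 CPM (SD, n = 4), and mPSCs at 139 and 167 CPM, with 435 CPM in the library titled as passage 0.

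Mesothelial genes, those of the lining of body cavities, were higher in 5 of 10 tested, against 4.89% of all genes, and lower in 0 (median 0.54). Upk3b, a uroplakin of mesothelium, stood at 12.0 and 30.6 CPM in TC1 and at 68.5 and 83.5 CPM in mTBLC embryoid bodies (1.91 ± 0.22). Upk1b (1.29 ± 0.21) and Bnc1 (1.18 ± 0.20), a zinc finger factor, were higher too, and so was the Wilms tumour factor Wt1 (1.42 ± 0.42). Msln, mesothelin, did not pass.

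**Figure D3:**
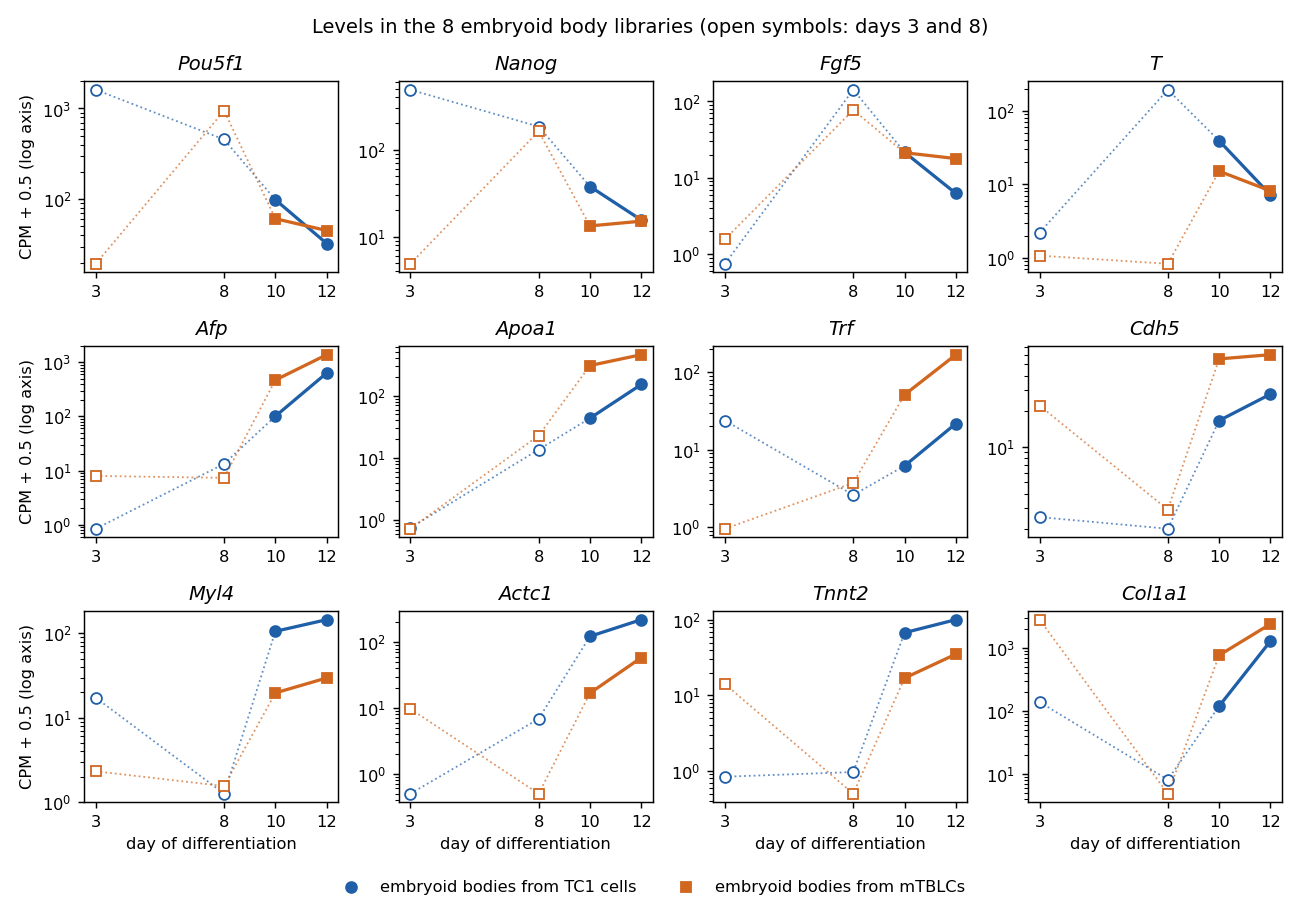
Level (CPM plus 0.5, log axis) of 12 genes by day in the 8 embryoid body libraries, from TC1 cells (circles) and from mTBLCs (squares), with 1 library per point; filled symbols are days 10 and 12 and open symbols days 3 and 8. Apoa1 and Trf are higher and Myl4, Actc1 and Tnnt2 lower from mTBLCs at days 10 and 12, and Pou5f1 at day 8 from mTBLCs (944 CPM) lies above the TC1 library of that day (454 CPM).

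Most neural genes did not pass, and those that did were lower. Of 18 tested, 4 were lower and 0 higher, and the median was -1.19. Nes, nestin of neural progenitors, stood at 70.5 and 66.4 CPM in TC1 and at 25.0 and 33.7 CPM in mTBLC embryoid bodies (-1.26 ± 0.16), and Stmn2, a microtubule regulator of neurons, at 63.7 and 21.7 against 15.3 and 11.1 CPM (-1.56 ± 0.23). Both were below both TC1 libraries. Tubb3, neuronal tubulin, was lower (-2.0 ± 0.55, adjusted p = 0.0385), while Sox1 (-1.35 ± 0.63) and Pax6 (-1.19 ± 0.64), early neural factors with levels under 10 CPM, did not pass. Pax1, a sclerotome factor, was lower, at 10.5 and 13.8 against 0.948 and 1.26 CPM (-3.48 ± 0.38).

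For 16 of 20 pluripotency genes, all 4 libraries lay below each of the 7 starting libraries, and for 18 when the library titled as passage 0 was left out. The share of all genes that lay so was not counted, so these counts describe levels only. Lin28a, an RNA-binding protein, was an exception among the pluripotency genes. It stood at 447 and 304 CPM in TC1 and 523 and 377 CPM in mTBLC embryoid bodies beside 86.1 ± 28.8 CPM (SD, n = 4) in mTBLCs. Pou5f1, a core factor, was at 98.0 and 32.0 CPM in TC1 and 60.4 and 44.6 CPM in mTBLC embryoid bodies (-0.15 ± 0.21, adjusted p = 0.708), beside 894 ± 117 CPM (SD, n = 4) in mTBLCs and 1589 and 1721 CPM in mPSCs, with 2211 CPM in the library titled as passage 0. The 4 values overlapped between origins. Of 19 pluripotency genes tested 4 were lower, Dppa4, Dppa5a, Sox2 and Tdgf1, and 2 higher, Tfcp2l1 and Tbx3, with a median of -0.83. Sox2, also a factor of neural progenitors, stood at 71.8 and 48.0 against 25.1 and 30.8 CPM (-1.10 ± 0.19, adjusted p = 0.00504). Nanog did not pass (-0.83 ± 0.29, adjusted p = 0.0848).

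Genes of the 2-cell embryo, which mark mTBLCs, were at or near 0. None of the 19 list genes in the table passed the filter on low counts, 11 had 0 counts in all 4 libraries, and the summed level was 1.70 and 1.30 CPM in TC1 and 0.695 and 0.229 CPM in mTBLC embryoid bodies, beside 389 to 609 CPM in the 4 mTBLC cultures. Zscan4c stood at 0.973 and 0.062 CPM in TC1 and at 0 counts in both mTBLC libraries, where it was at least 5.07-fold lower by a floor of 3 counts over the group.

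Streak and formative genes were at low or middling levels. Of 12 streak genes tested 2 were higher, Lhx1 (1.14 ± 0.33) and Eomes (0.63 ± 0.18), factors of the anterior streak and node, and T, brachyury, did not pass (-0.70 ± 0.31). Of 12 formative genes 2 were lower, Otx2 (-1.09 ± 0.24) and Sox11 (-0.48 ± 0.13), and Fgf5, an epiblast growth factor, did not pass (0.71 ± 0.31). Of 30 tested Hox genes, which pattern the body axis, 0 passed in edgeR or in DESeq2 and 5 had an unadjusted p under 0.05, with a median of 0.52.

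Trophoblast genes were not higher as a group. Of 26 list genes 16 were tested; 2 were higher, Hand1 and Eomes, which the heart and streak lists hold too, and 3 were lower, Krt7, Rhox6 and Rhox9, with a median of -0.31. Prl3d1 and Prl2c2, of the placental prolactin family, the syncytin Synb and Ctsq had 0 counts in all 4 libraries. Of the same families, Prl3b1 stood at 0.487 and 2.11 CPM in TC1 and 0.126 and 0.229 CPM in mTBLC embryoid bodies, and Syna at 0.324 and 0.869 against 0.253 and 0.344 CPM. Cdx2 (0.72 ± 0.23, adjusted p = 0.0637), Gata3 (-0.64 ± 0.29) and Krt8 (-0.15 ± 0.15) did not pass. Of 9 germline genes 0 passed in edgeR or in DESeq2 and 2 had an unadjusted p under 0.05, with a median of 0.03.

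Maternally expressed RNAs of the Dlk1-Meg3 imprinted region were higher together with Dlk1. Meg3 stood at 464 and 722 CPM in TC1 and at 1479 and 1853 CPM in mTBLC embryoid bodies (1.49 ± 0.14, adjusted p = 0.000102). Dlk1, a paternally expressed Notch-like ligand, stood at 161 and 476 against 774 and 1270 CPM (1.81 ± 0.18, adjusted p = 0.000188), Rian at 673 and 713 against 1375 and 1342 CPM (0.94 ± 0.13), and Mirg was higher too (1.15 ± 0.17). The mTBLC libraries exceeded both TC1 libraries for each. The counts are of total RNA per gene and do not show which parental allele was read.

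Of all 25 tested imprinted genes, 8 were higher and 2 lower, with a median of 0.33. Grb10, a growth inhibitor, was lower, at 1182 and 1004 against 646 and 655 CPM (-0.77 ± 0.13), and so was Zim1 (-1.16 ± 0.15). Igf2, a fetal growth factor, stood at 3592 and 7027 against 4638 and 6237 CPM and did not pass (0.07 ± 0.16), while H19, its neighbour, was higher (0.65 ± 0.17). The growth regulator Plagl1 was higher (0.98 ± 0.15), with overlap.

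**Figure D4:**
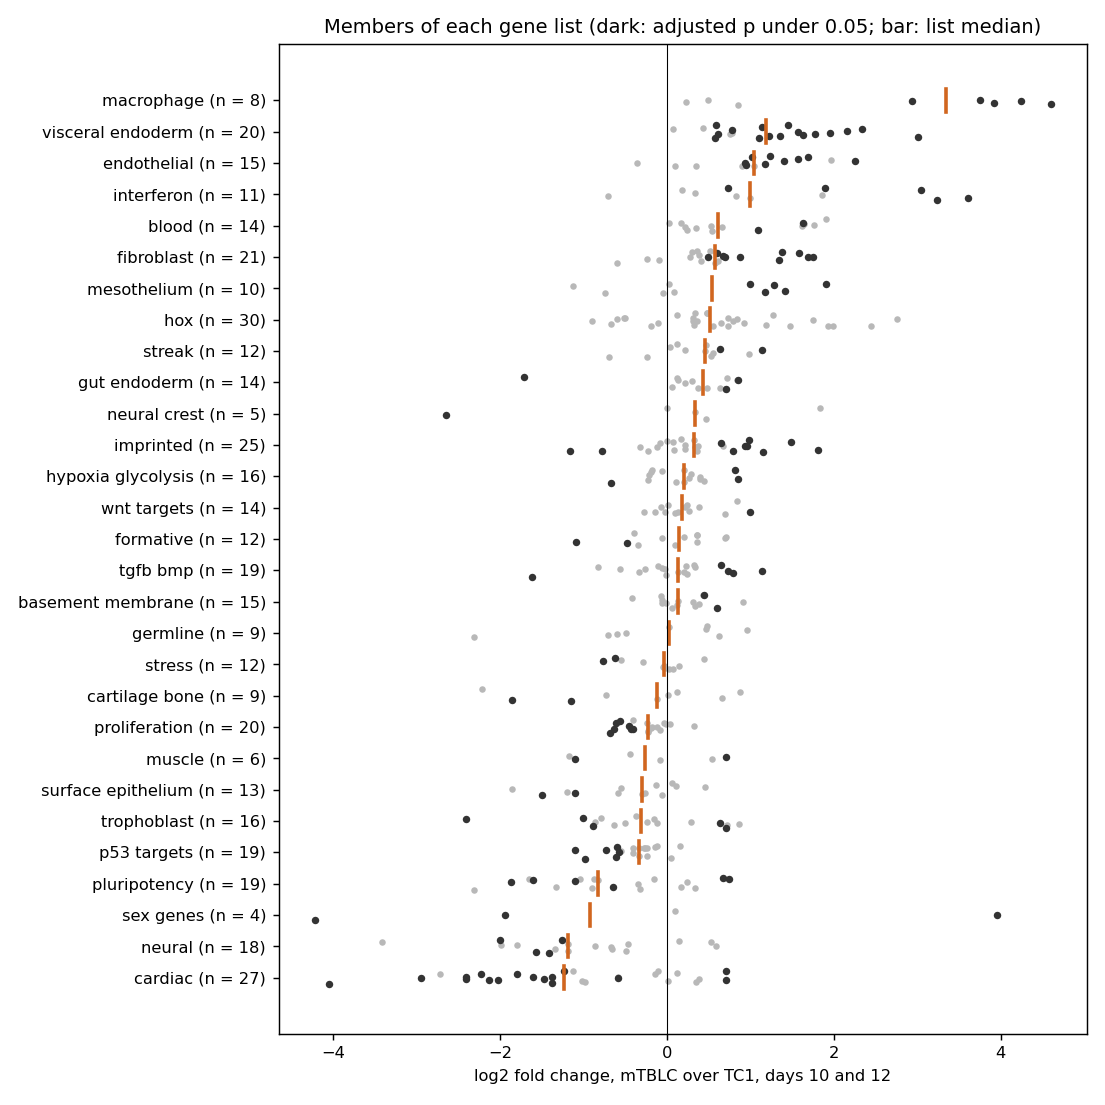
Log2 fold change (x axis, mTBLC over TC1 embryoid bodies, days 10 and 12) of each tested member of 29 gene lists, ordered by the list median (orange bar), with dark points for adjusted p under 0.05. Medians ran from -1.23 for the heart muscle list to 3.34 for the macrophage list.

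Of 14 Wnt target genes 1 was higher, Nkd1 (1.0 ± 0.18), and 0 lower, beside 4.89% of all genes higher and 5.46% lower. Of 19 TGF-beta and BMP genes 4 were higher (Tgfb3, Bmp2, Tgfb1 and Smad6) and 1 lower, Lefty2, a Nodal antagonist (-1.62 ± 0.30). Of 20 proliferation genes 7 were lower, against 5.46% of all genes, and 0 higher (median -0.22). Among the 7 were Ccne1 (-0.68 ± 0.16) and Cdk1 (-0.61 ± 0.12), a cyclin and a kinase of the cell cycle. Without the day block 2 of the 7 had an unadjusted p under 0.05. Of 19 p53 target genes 6 were lower, against 5.46% of all genes, and 0 higher (median -0.33), with the apoptosis gene Pmaip1 at 31.5 and 38.8 against 16.7 and 19.5 CPM (-0.98 ± 0.17). Of 16 hypoxia and glycolysis genes 2 were higher and 1 lower, and of 12 stress genes 2 were lower. Surface epithelium had 2 of 13 lower, cartilage and bone 2 of 9 lower, and neural crest 1 of 5 lower, each with 0 higher. Directions of Tgfb3 and Tdgf1 reversed in a fit that left out 1 library, and those of Sox11 and Tbx3 in a fit of all 4 days.

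Genes for ribosomal proteins, which have many near-identical copies in the genome, were lower. Of 93 tested, 52 were lower, against 5.46% of all genes, and 0 were higher, with a median of -0.46. In edgeR without the day block 0 passed, and 55 were lower in DESeq2. These genes took 7.04% and 5.05% of counts in TC1 and 4.95% and 3.96% in mTBLC embryoid bodies. Their part in the other results was not tested.

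Sex-linked genes differed although the labels give 1 line. Eif2s3y, a Y-linked translation factor gene, stood at 29.8 and 29.4 CPM in TC1 and at 1.64 and 1.60 CPM in mTBLC embryoid bodies (-4.21 ± 0.26, adjusted p = 2.48e-06), a call that held also without the day block. Ddx3y, also Y-linked, was at 5.35 and 6.14 against 1.01 and 2.18 CPM (-1.94 ± 0.49), while Uty, at 1.46 and 0.496 against 1.14 and 0.802 CPM, did not pass. Xist, the RNA of X inactivation, stood at 0.162 and 1.06 against 7.46 and 10.9 CPM (3.96 ± 0.53). The starting mTBLCs held Eif2s3y at 14.2 ± 6.81 CPM (SD, n = 4), with a range from 6.21 to 20.9 CPM, all above the mTBLC embryoid bodies of days 10 and 12, and Xist at 262 ± 121 CPM. In mPSCs Eif2s3y ranged from 3.67 to 33.5 CPM, the library titled as passage 0 included. In the mTBLC libraries labelled days 3 and 8, Eif2s3y stood at 12.3 and 0.131 CPM and Ddx3y at 8.46 and 1.05 CPM. Counting by strand is not stated, so reads of Xist and its antisense partner Tsix cannot be told apart. What part the sex-linked difference has in other results was not tested.

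Libraries were also compared with each other by the median squared difference of their levels over that from counting alone. Each pair was compared over genes with a summed count of at least 100. The mTBLC day 10 library was nearest to TC1 day 12 (ratio 13.1), nearer than to TC1 day 10 (21.2) or to mTBLC day 12 (17.4), and TC1 days 10 and 12 differed by 19.1. The TC1 library labelled day 3 lay at a ratio of 3.53 from 1 of the 3 mPSC libraries, while the next-lowest ratio of any pair was 9.06. These 2 libraries had a Pearson correlation of log2 CPM of 0.991 across the 14531 genes tested, which are not independent replicates.

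At days 3 and 8 the mTBLC libraries ran against the order of days. Pou5f1 stood at 18.9 CPM at day 3 and 944 CPM at day 8, and Zscan4c at 1.02 and 34.8 CPM. The library labelled day 3 had the highest Col1a1 (2854 CPM), Tagln (2611 CPM) and Krt8 (1606 CPM) of the 8 embryoid body libraries, and Actc1 at 9.20 CPM. In TC1 embryoid bodies Pou5f1 went from 1608 to 454, 98.0 and 32.0 CPM over days 3, 8, 10 and 12, and Fgf5 and T were highest at day 8, at 142 and 192 CPM.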

How the data were processed

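Bulk RNA-seq libraries were read from tables of raw counts per gene symbol, deposited by the authors. Trimmomatic, HISAT2 and featureCounts are named in the submitters' processing notes without versions, beside the builds mm10 and hg38; the annotation, strand and pair settings are not given in the sources used here. Between 69.1% and 72.4% of low counts per embryoid body library were even numbers, as where both mates are counted, so counts were also halved. Rows whose names had become dates (26) were dropped, which leaves 24958 genes.

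The main fit used edgeR 4.0.16 under R 4.3.3, with its filterByExpr filter, TMM scaling and quasi-likelihood test on the 4 libraries, and day as a block, which leaves 1 residual degree of freedom per gene and 12.83 after moderation across genes. Each SE was obtained by dividing the log2 fold change by the root of its F statistic. The day given in the titles pairs the libraries (correlation of deviations from origin means 0.35). The 2-fold rule used log2 of TMM-scaled CPM plus 0.5. Alternatives were no day block, the size factors and the Wald test of DESeq2 1.42.0, no filter or a stricter one, all 4 days, halved counts, offsets for the gene length trend, and leaving out each library. In data simulated for this comparison (14531 genes, 200 changed), 63% of 2-fold and 85% of 4-fold changes were found, with 7 false calls among 155. The simulated counts took their spread from these libraries under the day block. They therefore cannot show the error rate between separate cultures.

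The libraries, 30 gene lists and motifs were chosen with earlier results of these data known, and the ribosomal protein list was added after its values were seen. Named genes are 24 fixed genes, up to 4 called members per list and direction (mean of 5 CPM or more), and the 10 largest called changes per direction; the others named were chosen after their values were seen. Some genes the rule selects are not reported here. Promoter windows are RefSeq's (GRCm38.p6).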

Additional observations from a re-analysis of the deposited data

Results flagged for a closer look

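In 81 groups of 4 values (the fixed genes and library measures over 4 days or 4 cultures), single values stood apart from the other 3 by Dixon's 95% criterion in 18. Chance flags about 1 in 20 groups, and the days are a course, not replicates.

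Among TC1 embryoid bodies, the library labelled day 3 was highest for Sox2 (833.7 CPM), Zfp352 (0.677 CPM), Pecam1 (134.1 CPM) and Xist (69.5 CPM) and lowest for Cdx2 (0 CPM). Day 8 was highest for Fgf5 (141.9 CPM) and Mesp1 (6.77 CPM), and day 12 for Afp (635.3 CPM) and Col1a1 (1301 CPM).

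Among mTBLC embryoid bodies, the library labelled day 8 was highest for Pou5f1 (944.2 CPM), Sox2 (282.4 CPM), Nanog (161.8 CPM), Zscan4c (34.8 CPM) and Zfp352 (2.10 CPM). The library labelled day 3 was highest for Tubb3 (145.6 CPM) and lowest for Pax6 (0.795 CPM). Among the 4 mTBLC cultures, 1 stood apart for Pou5f1 (1068 CPM) and another for Cdx2 (2.11 CPM).

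For 6 fixed genes the difference between origins had opposite signs on the 2 days, with 1 library per origin and day, and the difference between days was not tested. The log2 difference at day 12 and at day 10 was 0.43 and -0.70 for Pou5f1, 1.47 and -0.03 for Fgf5, 0.14 and -1.39 for T, 0.14 and -2.15 for Pax6, -0.005 and 0.77 for Sox17, and -0.39 and 0.09 for Krt8.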

How the results depend on the processing

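The counts of 711 genes higher and 793 lower depend on the day block. Without this replicate block 3 were higher and 1 lower, and with all 4 days edgeR passed 0 and 0 (372 had an unadjusted p below 0.05). The Wald test of DESeq2 gave 357 and 444, with no adjusted p for 1127 of 14531 genes, Mesp1 among them. With no filter edgeR gave 1182 higher and 1127 lower. Leaving out 1 library in turn, without the block and with the lone library assumed to vary like the others, gave 6 to 139 higher and 3 to 64 lower for the TC1 libraries (most without day 12), and 3 to 4 higher and 1 to 7 lower for the mTBLC libraries; the cause was not tested. All 1504 called genes kept their sign without the block, in DESeq2, with its size factors and with the length trend removed. These fits used the same 4 libraries, so a kept sign does not show how other cultures would compare. Of the 94 named genes called, 3 passed without the block, 76 in DESeq2, 93 with the length trend removed, 87 with halved counts and 89 with DESeq2 size factors. The counts of 233 and 163 genes at least 2-fold apart on both days became 96 and 46 with a pseudocount of 2 CPM, and 14 and 10 at 4-fold. With all 4 days the log2 fold change reversed for 8 of these 94, among them Ccng1 (0.365), Eda2r (0.167), Ndrg1 (-0.139), Perp (0.035), Slc7a11 (0.269), Sox11 (0.026) and Tbx3 (-0.096). It reversed without mTBLC day 12 for 4, among them Lox (-0.06), Nid1 (-0.039) and Tgfb3 (-0.592), and without TC1 day 10 for Nid1 (-0.003) and Tdgf1 (0.256); the cause was not tested. With 1 library per origin and day, the spread leans on moderation across genes.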
